A study of Mus musculus with 12 samples.

Results

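The 8 genes described here serve the catecholamine transmitters dopamine and noradrenaline in the newborn mouse brain: Th, Dbh, Slc6a2, Slc6a3, Slc18a2, Pitx3, Nr4a2 and Drd2. They were chosen by gene symbol for their roles in synthesis, transport, neuron identity and reception, and are 8 of the 17279 genes measured. All 8 were found on the array, through 112 main exon probesets, of which 106 passed the filter on variable probesets.

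Dopamine is made from tyrosine by tyrosine hydroxylase, the rate-limiting step, followed by a decarboxylase, and noradrenaline is then made from dopamine by dopamine beta-hydroxylase inside vesicles. A vesicular transporter loads both amines, and a plasma membrane transporter for each takes the released amine back into the cell. Dopamine neurons lie mainly in the ventral midbrain and project to the striatum, whereas noradrenaline neurons lie in the hindbrain, foremost in the locus coeruleus. Both are very small populations, so their transcripts are diluted by the RNA of all other cells when a whole brain is extracted.

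Total RNA came from 12 whole brains of newborn female mice, 6 wildtype (KIS +/+) and 6 KIS-ko (KIS -/-), each hybridised to 1 Affymetrix Mouse Exon 1.0 ST array. Every brain of one genotype had a littermate of the other, giving 6 litters. KIS is a protein kinase encoded by Uhmk1, and the knockout line had been backcrossed for 10 generations to C57BL6/N. Each brain was frozen and ground to powder whole, so the region a transcript came from is not known, and fewer cells of a type cannot be told apart from less RNA per cell. The comparison asks whether genes of catecholamine transmission were expressed differently at birth without KIS.

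The median probeset signal of an array lay between 459.9 and 525.9 PLIER units, and log2 values of any pair of arrays correlated at 0.977 or more. In 5 litters the KIS-ko array had the lower median, by up to 0.17 log2 in litter 6, and in litter 4 it had the higher one, by 0.10. Over all genes the median difference, KIS-ko minus wildtype littermate, was -0.04 on the log2 scale. Uhmk1 itself matched the labels: the 6 KIS-ko brains averaged a signal of 449 ± 46.1 (SD), against 1989 ± 80.4 (SD) for the 6 wildtype ones, lower in 6 of 6 litters, with a log2 difference of -2.11 (limma, adjusted p = 2.9e-07).

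The change of the 8 genes within litters was small against their spread. A gene's value is the mean over its kept probesets of log2(signal + 16), and differences are on that scale, which understates changes of dim genes. The gene signals given are these values turned back to the linear scale. None of the 8 passed limma's test with litter as a block at an adjusted p of 0.05, against 0.00579% of all genes, which is Uhmk1 alone. None had an unadjusted p under 0.05 either, where 4.34% of all genes were lower and 1.82% higher in KIS-ko at that level. With every array centred on its own median these overall counts turned from 750 lower and 315 higher to 314 lower and 787 higher. In 7 of the 8 the difference was below 0, as it was in 69.8% of all genes, and after centring in 5 of the 8, as in 38.5% of all genes, with Nr4a2 and Drd2 on the other side of 0. No member was lower in 6 of 6 litters, where 1.60% of all genes were, and none was higher in 6 of 6, where 0.920% were.

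**Figure D1:**
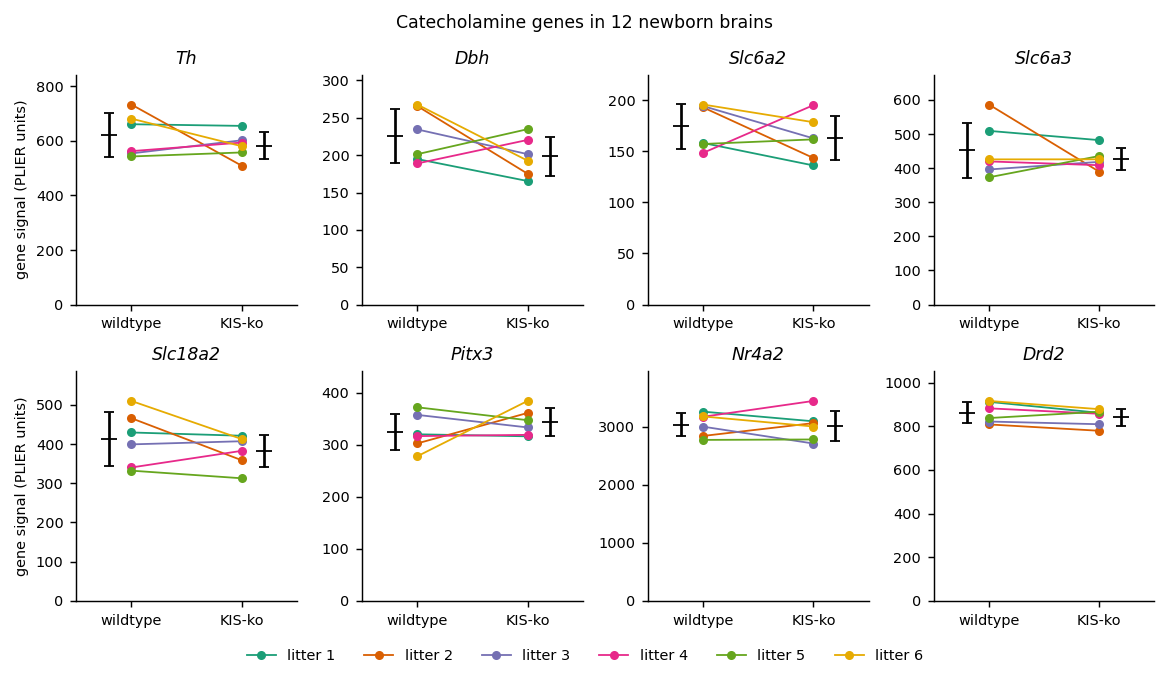
Gene signal (mean of log2(signal + 16) over kept probesets turned back to linear PLIER units, axes from 0) of the 8 genes in each of the 12 brains. Coloured lines join the wildtype and KIS-ko littermates of each of the 6 litters, and black bars beside them give the mean ± SD of each genotype (n = 6). The genotypes overlap in every panel, and lines run both up and down for each gene.

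Th, tyrosine hydroxylase, was measured by 14 kept probesets of 15 on chromosome 7, between 150078707 and 150085852 on the minus strand. Positions here are those listed in the deposited table, whose genome build is not given in the sources used here. In litters 1 to 6 the wildtype signals were 661, 734, 554, 563, 543 and 682. The KIS-ko littermates gave 655, 509, 602, 594, 558 and 581. The highest brain was the wildtype of litter 2 and the lowest its KIS-ko littermate, while in litters 3, 4 and 5 the KIS-ko brain was slightly above its littermate. The mean log2 difference was -0.09 (SE 0.08, 95% interval -0.27 to 0.09, limma adjusted p = 0.72), a fold of 0.942 with an interval from 0.832 to 1.07. Without litter 2 it was -0.002.

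Dbh, dopamine beta-hydroxylase, marks noradrenaline neurons because dopamine neurons do not make it. It had 12 kept probesets of 14 on chromosome 2, between 27020775 and 27038280 on the plus strand. The wildtype brains of litters 1 to 6 read 195, 266, 235, 189, 201.3 and 268. The KIS-ko brains read 165, 175, 201.4, 220, 235 and 193. Litters 1, 2, 3 and 6 had the lower value in KIS-ko and litters 4 and 5 the higher, and the ranges overlapped. The difference of -0.17 (SE 0.10, 95% interval -0.39 to 0.05, limma adjusted p = 0.68) was the most negative of the 8, a fold of 0.890 whose interval reaches from 0.762 to 1.04. By the weighted mean of probeset ratios that the study's methods define, its fold was 0.954 and that of Slc18a2, at 0.953, was the lowest. The litter differences of Dbh, with no allowance for array brightness, had an SD of 0.32, larger than in 95% of all genes.

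The transporters divide the amines between them. Slc6a2, the noradrenaline transporter, takes noradrenaline back into the cell and had 16 kept probesets of 17 on chromosome 8 (95484008 to 95525395, plus strand). Wildtype signals were 158, 193, 194, 148, 157 and 196 in litters 1 to 6, and KIS-ko signals were 136, 143, 163, 195, 162 and 178. The KIS-ko brain was the lower in litters 1, 2, 3 and 6, as for Dbh, and the higher in litters 4 and 5. The log2 difference was -0.09 (SE 0.09, 95% interval -0.28 to 0.10, limma adjusted p = 0.72), and it ran from -0.18 without litter 4 to -0.03 without litter 2.

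Slc6a3, the dopamine transporter, had all of its 16 probesets kept, on chromosome 13 (73674206 to 73715460, plus strand). The wildtype brains gave 509, 587, 396, 420, 373 and 426 and the KIS-ko brains 482, 390, 418, 409, 436 and 426. The wildtype brain of litter 2 was the highest of all 12, and its litter alone differed by -0.57 log2, while the other 5 litters lay between -0.08 and 0.22. The log2 difference over the 6 litters was -0.07 (SE 0.09, 95% interval -0.26 to 0.13, limma adjusted p = 0.78), and without litter 2 its sign turned, to 0.04.

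Slc18a2, the vesicular monoamine transporter VMAT2, loads dopamine, noradrenaline and serotonin into vesicles and is therefore shared with serotonin neurons. Its 18 probesets lie on chromosome 19 (59335823 to 59370482, plus strand) and were all kept. Wildtype signals were 429, 466, 399, 340, 332 and 510 and KIS-ko signals 421, 359, 407, 383, 313 and 413. The difference was -0.10 (SE 0.07, 95% interval -0.25 to 0.06, limma adjusted p = 0.69), lower in litters 1, 2, 5 and 6 and higher in litters 3 and 4. Of its 18 probesets 16 had a mean difference below 0, the most one-sided count among the 8 genes, but probesets of a gene read the same RNA and are not replicates.

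Pitx3 and Nr4a2 (Nurr1) are transcription factors needed for midbrain dopamine neurons to mature and survive. Pitx3 is also expressed in the lens and muscle, and Nr4a2 is made in many neurons of the cortex and hippocampus as well. Pitx3 had 9 kept probesets of 11 on chromosome 19 (46210175 to 46222775, minus strand), with wildtype signals of 320, 303, 358, 317, 372 and 278 and KIS-ko signals of 317, 361, 334, 319, 348 and 385. Its mean difference lay above 0, at 0.08 (SE 0.07, 95% interval -0.08 to 0.25, limma adjusted p = 0.72), with 3 litters higher and 3 lower. That value rested mainly on litter 6, at 0.45, and without that litter it was 0.01.

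Nr4a2 had 10 probesets, all kept, on chromosome 2 (56960613 to 56967626, minus strand). The wildtype brains gave 3256, 2838, 2998, 3168, 2770 and 3174, and the KIS-ko brains 3090, 3059, 2708, 3440, 2777 and 3000. Litters split 3 against 3. The difference was -0.01 (SE 0.05, 95% interval -0.13 to 0.10, limma adjusted p = 0.94). On this scaling its interval runs from 0.915 to 1.075 times the wildtype level. With centred arrays the difference was 0.045 (SE 0.048).

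Drd2, the D2 dopamine receptor, sits on striatal target neurons, on dopamine neurons themselves and on pituitary cells. Its 11 probesets on chromosome 9 (49148732 to 49215688, plus strand) were all kept. The wildtype signals were 912, 808, 821, 882, 837 and 916 and the KIS-ko signals 861, 779, 809, 857, 866 and 878. KIS-ko was the lower in 5 of 6 litters, the exception being litter 5, yet by at most 0.08 log2, and the genotypes overlapped. The difference was -0.03 (SE 0.04, 95% interval -0.13 to 0.06, limma adjusted p = 0.78), close to the median of all genes. Its litter differences had an SD of 0.045, which only 0.9% of all genes undercut, with no allowance for array brightness. With each array's median gene value subtracted, KIS-ko was the lower in litters 1, 3 and 4 and the higher in litters 2, 5 and 6. In litter 4 the wildtype brain then stood at 1.077 log2 and the KIS-ko brain at 0.938.

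**Figure D2:**
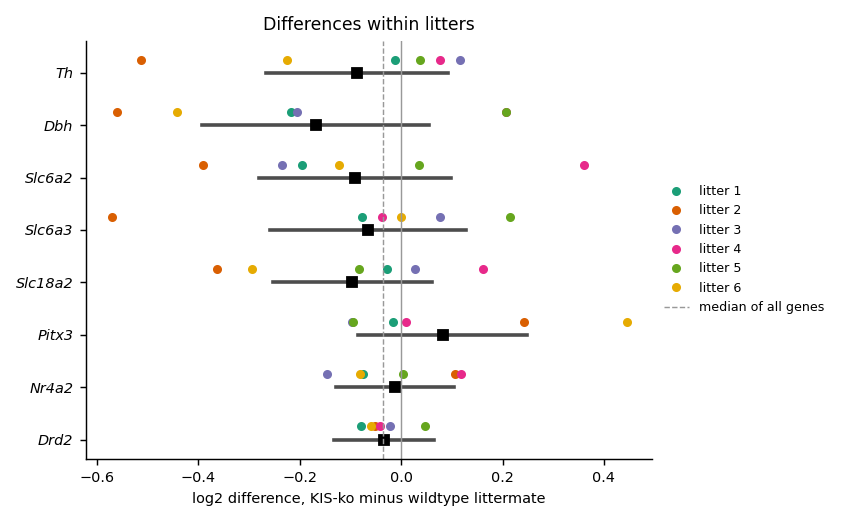
Log2 difference, KIS-ko minus wildtype littermate, of the 8 genes: coloured points are the 6 litters, black squares the mean and bars limma's 95% interval. Solid and dashed vertical lines mark 0 and the median of all genes at -0.04. Every interval includes 0, litter 2 is the lowest point of Th, Dbh, Slc6a2, Slc6a3 and Slc18a2, and the points of Drd2 are the tightest.

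With no allowance for array brightness, the 5 synthesis and transport genes and Pitx3 differed more between littermates than most genes did. Their ranks after centring the arrays were not computed. Centring lowered the SE of the difference of Slc18a2 from 0.071 to 0.049 and raised that of Pitx3 from 0.075 to 0.097. The median SD of litter differences over all genes was 0.14. Th, at 0.24, lay above 87.1% of genes, Slc6a2, at 0.26, above 90.4%, Slc6a3, at 0.27, above 91.1%, Pitx3, at 0.22, above 82.3%, and Slc18a2, at 0.20, above 76.9%. Nr4a2, at 0.11, lay above 26.3%. Litter 2 gave the lowest difference of the 6 litters in all 5 synthesis and transport genes, from -0.36 in Slc18a2 to -0.57 in Slc6a3, while in that litter the array medians differed by -0.13. Without litter 4, the litter whose KIS-ko array had the higher median, Dbh (-0.24) and Slc6a2 (-0.18) had unadjusted p values under 0.05, at 0.037 and 0.019, when 19.0% of all genes were lower at that level, and their limma adjusted p values were 0.20 and 0.17. Without litter 5 only Dbh had an unadjusted p under 0.05 (-0.24, unadjusted p = 0.034, limma adjusted p = 0.72), when 3.48% of all genes were lower at that level. Without litter 2 the differences of Dbh and Slc6a2 shrank to -0.09 and -0.03, with unadjusted p values of 0.38 and 0.73 by limma.

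Signals of different probesets depend on their probes, so no order of level between the genes was drawn and each was set against 5222 control probesets placed in introns, whose median signal was 114.3 and 95th percentile 713.3. The signal of each of the 8 genes was above the control median. Nr4a2, at 3034 ± 198 (SD, n = 6) in wildtype, and Drd2, at 863 ± 46.7, were above the 95th percentile too, with 9 of 10 and 7 of 11 probesets there. Th, at 623 ± 79.9 by the mean of logs, had 5 of its 14 kept probesets above it. By the plain mean over its probesets and all arrays Th was at 788, above that percentile too. That mean takes in 1 probeset, at 150084069 to 150084095, that read 3870 in wildtype, while the median of the Th probesets was 580. Slc6a3 (452 ± 80.6) had 3 of 16 probesets above the percentile, Slc18a2 (413 ± 69.9) 3 of 18 and Pitx3 (325 ± 34.9) 3 of 9. Of those in Pitx3, the ones at 46211048 to 46211083 and 46222742 to 46222775 have probes that may also hybridise to other sequences. Dbh, at 226 ± 35.7, and Slc6a2, at 174 ± 22.0, had none of their 12 and 16 above it, so both noradrenaline genes were read near background in these whole brains.

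**Figure D3:**
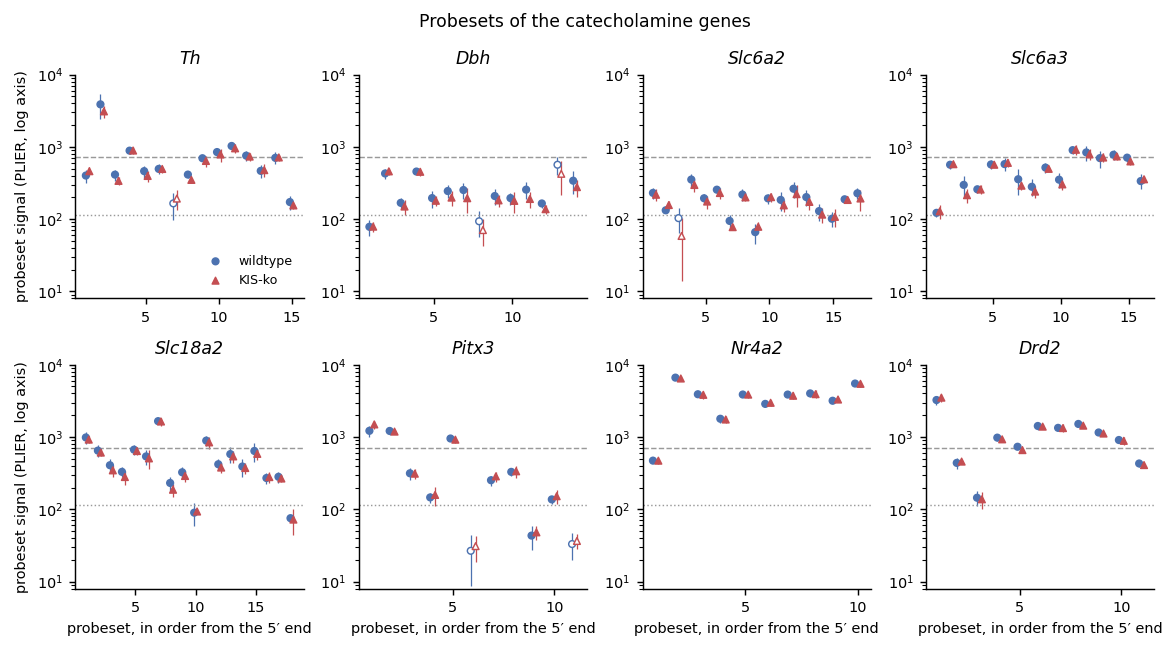
Probeset signals (PLIER units, log axis) of the 8 genes in order from the 5′ end, as mean ± SD of 6 wildtype (blue circles) and 6 KIS-ko (red triangles) brains, with hollow symbols for the 6 probesets left out as too variable. Dotted and dashed lines are the median and 95th percentile of the intron controls. Wildtype and KIS-ko follow the same profile along each gene, Nr4a2 lies almost wholly above the dashed line, and Dbh and Slc6a2 lie wholly below it.

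No probeset of the 8 genes was called for a change of exon use. The splicing index, a probeset's log2 value minus the mean of its gene's other probesets, did not differ past an adjusted p of 0.05 for any of the 106 probesets of the 8 genes, against 0.000985% of all probesets tested, which were 1 in Ddr2 and 1 in Uhmk1. At an unadjusted p under 0.05 there were 6 of the 106, against 6.09% of all 202944. They lay in Th and Slc6a3 (2 each) and in Slc6a2 and Slc18a2 (1 each). The lowest p was that of a Slc6a2 probeset at 95516707 to 95516734, with a splicing index higher by 0.34 (SE 0.09, limma adjusted p = 0.71), whose probes may also hybridise to other sequences according to the table. In Slc18a2 the probeset at 59349106 to 59349141 had an index lower by 0.21 (SE 0.065, limma adjusted p = 0.77).

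Among the genes, Th correlated across the 12 brains with the dopamine transporter, and Dbh with the noradrenaline transporter. To take out differences in array brightness, the array's median gene value was subtracted from each gene. Th and Slc6a3 then correlated at r = 0.78 over the 12 brains (Spearman 0.72), at 0.80 within wildtype and 0.77 within KIS-ko, and at 0.61 without the 2 brains farthest from the median of Th. Those 2 brains are the litter 2 pair, so leaving out litter 2 is the same calculation. Dbh and Slc6a2 correlated at 0.81 (Spearman 0.68), at 0.92 within wildtype and 0.74 within KIS-ko, at 0.77 without the 2 farthest brains and at 0.79 without litter 2. Over the 12 brains the values between dopamine and noradrenaline genes were lower, 0.21 for Th with Dbh, -0.01 for Th with Slc6a2 and -0.18 for Slc6a3 with Slc6a2. Over the 6 differences between littermates that gap was narrower: Th with Slc6a3 stood at 0.83 and Dbh with Slc6a2 at 0.78, but Th with Dbh at 0.70, Dbh with Slc6a3 at 0.60, Dbh with Slc18a2 at 0.72 and Th with Slc6a2 at 0.41. Th was the 4th of 15373 genes in likeness to Slc6a3, while Slc6a3 was the 28th in likeness to Th. Dbh was the 2nd of 15373 in likeness to Slc6a2 and Slc6a2 the 5th in likeness to Dbh. These values describe 12 brains that come in pairs from 6 litters and the genes of 1 brain share its powder, RNA and array, and the pairs were picked out of 28 after their values were seen.

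**Figure D4:**
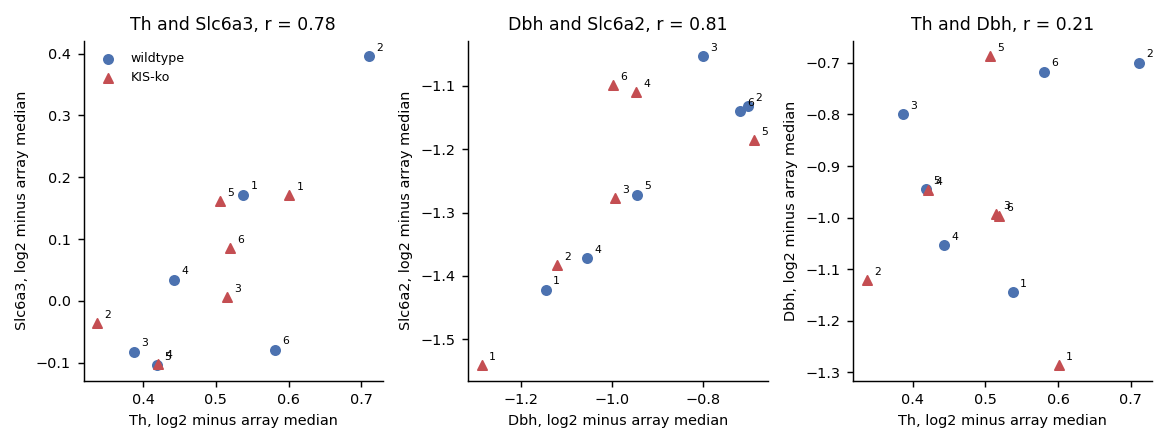
Pairs of genes over the 12 brains, each axis the gene's log2 value minus the array's median gene value, with the litter number beside each point, blue circles for wildtype and red triangles for KIS-ko. Th with Slc6a3 (r = 0.78) and Dbh with Slc6a2 (r = 0.81) slope upwards, with the litter 2 wildtype brain at the top of the first, and Th with Dbh (r = 0.21) shows a wide scatter.

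Th also went with Slc18a2 at r = 0.63 and with Ddc, the decarboxylase of the next step, at 0.61. Before the subtraction Th and Slc6a3 correlated at 0.84, Dbh and Slc6a2 at 0.84 and Th and Slc18a2 at 0.81. Array brightness moved with several of these genes, and the values before subtraction correlated with the array's median gene value at 0.80 for Th and for Slc18a2 and at -0.78 for Pitx3. After subtraction Th still correlated with it at 0.49, Slc18a2 at 0.60, Drd2 at -0.57 and Pitx3 at -0.90, while Slc6a3 (0.15), Dbh and Slc6a2 (0.03 each) and Nr4a2 (-0.16) lay nearer to 0. Its part in the correlations between genes was not tested. Pitx3 ran against Th, at -0.58.

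The promoters of Th and of the transporters it correlated with, Slc6a3 and Slc18a2, are shown, because Th and Slc18a2 hold the same full cyclic AMP response element and Slc6a3 does not. Slc6a3 and Slc18a2 correlated with each other at only 0.25, and at -0.02 without litter 2. The sequences run from 250 bases before to 50 after the annotated start, 5′ to 3′ on the gene's strand, from RefSeq on assembly GRCm38.p6. The set of promoters used here held 7 of the 8 genes, all but Slc6a2. Capitals mark matches on either strand to the cyclic AMP response element TGACGTCA, bound by CREB-type factors, and to the GC box GGGCGG. The positions are chr7:142899946-142900245 for Th on the minus strand, chr13:73536497-73536796 for Slc6a3 and chr19:59260628-59260927 for Slc18a2, both on the plus strand.
Th: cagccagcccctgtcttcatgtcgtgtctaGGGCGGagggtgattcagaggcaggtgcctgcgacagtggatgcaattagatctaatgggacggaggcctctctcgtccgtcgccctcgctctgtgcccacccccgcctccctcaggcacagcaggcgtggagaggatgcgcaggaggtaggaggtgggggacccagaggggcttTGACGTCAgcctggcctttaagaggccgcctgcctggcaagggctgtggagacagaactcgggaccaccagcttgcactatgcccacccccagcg
Slc6a3: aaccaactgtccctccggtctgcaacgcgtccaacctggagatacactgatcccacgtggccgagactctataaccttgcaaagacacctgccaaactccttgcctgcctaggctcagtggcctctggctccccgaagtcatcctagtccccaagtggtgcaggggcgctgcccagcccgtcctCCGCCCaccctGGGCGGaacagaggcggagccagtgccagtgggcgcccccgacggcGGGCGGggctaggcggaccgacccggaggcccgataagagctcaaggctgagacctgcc
Slc18a2: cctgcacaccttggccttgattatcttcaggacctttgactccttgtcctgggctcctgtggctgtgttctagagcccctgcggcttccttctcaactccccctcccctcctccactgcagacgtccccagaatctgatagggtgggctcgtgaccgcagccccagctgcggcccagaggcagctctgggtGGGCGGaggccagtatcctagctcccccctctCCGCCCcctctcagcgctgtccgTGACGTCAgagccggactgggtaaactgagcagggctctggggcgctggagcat

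The element TGACGTCA begins 45 bases before the start in Th and 4 bases before it in Slc18a2. Of all 32851 promoters of this length 1.79% hold it. The GC box was in 6 of the 7 promoters, all but Dbh, against 35.7% of all promoters. A TATAAA was found in Nr4a2 only, against 13.6% of all promoters. The element AAAGGTCA, known for binding Nr4a2 as a monomer, and TAATCC, known for binding Pitx-type homeodomains, were in none of the 7, against 1.51% and 7.06% of all. These motifs were read on both strands, no match overlapped one of another motif, and the matches are of letters only.

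Over 12 arrays the genes whose pattern was most like that of each member were mostly ones outside the pathway. For Th they were H2-DMa (r = 0.89), Rasgrp2 (0.87) and Myb (0.86), and for Slc6a3 Pex16 (0.83), Slc35d2 (0.80) and Wdr53 (0.78). For Dbh they were Bloc1s2 (0.91), Mars2 (0.82) and Serpina3n (0.81), and for Slc6a2 Tulp3 (0.87), Dbh itself (0.81) and Gstm2 (0.79). For Slc18a2 they were Itgb3bp (0.94), Cd93 (0.93) and Ppp1r3c (0.92), and for Pitx3 Clca5, Rab44 and Trappc6a, each at 0.97. Among the genes most like Nr4a2 were Sec14l1 (0.88) and Neurod6 (0.88), a transcription factor of cortical projection neurons. Drd2 was most like Klhl9 (0.94), Lingo3 and Odf3b (0.90 each). These genes were ranked out of 15373 over 12 arrays, and nothing about function or control follows from the likeness.

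No other gene of the pathway passed the test. Of 54 further genes of catecholamine synthesis, breakdown, reception and neuron identity, 53 were measured, with 3 lower and 1 higher at an unadjusted p under 0.05, where 4.34% of all genes were lower and 1.82% higher. After centring the arrays these counts became 1 lower and 3 higher, beside 314 lower and 787 higher of all 17279 genes, with Maob and Adrb3 leaving and Pnmt (at 0.16) and Adrb1 (at 0.12) joining, each with a limma adjusted p of 0.74. By sign 33 were below 0 and 20 above, with 69.8% of all genes below 0 and a median of -0.03 against -0.04 for all genes, and after centring the arrays 20 were below and 33 above. In synthesis and its cofactor tetrahydrobiopterin, 6 of 7 genes were below 0 and 1 above, also after centring, from Ddc at -0.13 (SE 0.06, lower in 5 of 6 litters, limma adjusted p = 0.68) to Pnmt, which makes adrenaline, at 0.11 (SE 0.05). In breakdown and vesicles, Maob, an amine-oxidising enzyme found largely in glia and serotonin neurons, was at -0.17 (SE 0.07, unadjusted p = 0.042, limma adjusted p = 0.68), and the vesicular transporter of endocrine cells Slc18a1 was at 0.06.

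Among the other dopamine receptors, values ran from -0.13 in Drd1a, the D1 receptor read by only 2 probesets, to 0.04 in Drd4. Among 9 adrenergic receptors, Adrb3, a receptor best known from fat, was at -0.25 (SE 0.09, lower in 5 of 6 litters, unadjusted p = 0.015, limma adjusted p = 0.68), read by 2 probesets, and Adrb1 was at 0.06. Of 15 dopamine neuron factors and markers, Gdnf, a growth factor for dopamine neurons, was higher in KIS-ko in 6 of 6 litters, where 0.920% of all genes were. It was at 0.19 (SE 0.07, unadjusted p = 0.017, limma adjusted p = 0.68), and Aldh1a1, which marks ventral dopamine neurons, was the lowest at -0.11. Of 5 noradrenaline neuron factors measured, values ran from -0.10 in Hand2 to 0.00 in Phox2a. Of 10 genes of receptor signalling in the striatum, 8 were below 0 and 3 after centring, beside 69.8% and 38.5% of all genes, and Tac1, the substance P precursor of D1-type neurons, was at -0.20 (SE 0.08, lower in 5 of 6 litters, unadjusted p = 0.029, limma adjusted p = 0.68), while Pde10a was the highest at 0.01.

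**Figure D5:**
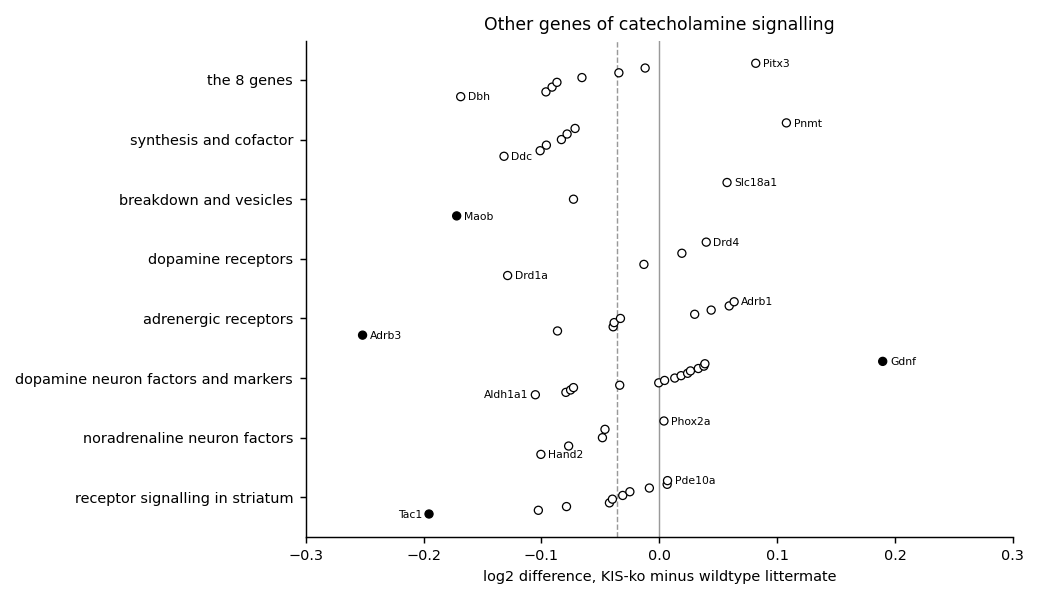
Log2 difference, KIS-ko minus wildtype littermate, of the 8 genes and of 53 other genes of catecholamine signalling by list, 1 point per gene, filled where the unadjusted limma p is under 0.05. Lines mark 0 (solid) and the median of all genes (dashed). The 4 filled points are Maob, Adrb3 and Tac1 on the left and Gdnf on the right.

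Markers of other cells in these brains were read beside the 8 genes. By the plain mean over probesets and arrays, all 6 measured of 8 neuron markers were above the 95th percentile of the controls. Of 5 serotonin neuron markers none passed the adjusted test and 3 were below 0 and 2 above, from Htr1a (-0.17) and Tph2 (-0.15), both with unadjusted p values under 0.05, to Gata2 (0.10). After centring, Tph2 no longer had such a p (0.16), Htr1a did (0.049) and Gata2, at 0.16, gained one (0.0064). The summed signal of that list was 1618 to 2042 in wildtype and 1646 to 1862 in KIS-ko brains, and the list correlated with Th at 0.66. Of 11 measured Hox genes of the hindbrain and cord, which follow how much hindbrain a sample holds, none passed the adjusted test, with Hoxb4 lower and Hoxa5, Hoxc4 and Hoxc5 higher at an unadjusted p under 0.05 (with no filter on variable probesets 12 were measured, all 12 below 0, 2 of them at that level), beside the 4.34% lower and 1.82% higher of all genes, and sums of 4274 to 5338 in wildtype and 3884 to 5373 in KIS-ko. Hoxa5 and Hoxc5 were read by 1 kept probeset each, Hoxc4 by 3 and Hoxb4 by 5, and Hoxc5, at 83.3, lay below the control median. The Hox list correlated with Dbh at 0.16 and with Slc6a2 at 0.01.

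Of 7 measured pituitary markers 1, Pitx1, was higher in 6 of 6 litters, where 0.920% of all genes were. It was at 0.30 (SE 0.07, unadjusted p = 0.0024, limma adjusted p = 0.68), and 1.82% of all genes were higher at an unadjusted p under 0.05. The pituitary hormone gene Prl lay below the control median by the plain mean, at 106. Sums of the pituitary list ran from 1189 to 1381 in wildtype and from 1208 to 1453 in KIS-ko, and the list correlated with Pitx3 at 0.82 and with Drd2 at 0.67. Such values were not particular to the pituitary list, since Pitx3 also correlated at 0.82 with the neuron markers, Drd2 at 0.79 with the blood markers, Slc18a2 at -0.83 with the Hox list and Th at -0.64 with the neuron markers. Of 5 astrocyte, 5 choroid plexus, 6 meningeal and 5 blood markers measured, none passed the adjusted test. Only the astrocyte filament gene Gfap, at -0.27 (SE 0.08, limma adjusted p = 0.68), had an unadjusted p under 0.05, where 4.34% of all genes were lower. All 5 astrocyte markers were below 0, also after centring, beside 69.8% and 38.5% of all genes. Their median was -0.09 (-0.03 after centring), and their list correlated with Dbh at 0.55. The part of these other cells in the values of the 8 genes was not tested.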

How the data were processed

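Total RNA of 12 newborn brains was hybridised to exon arrays, 1 per brain. The intensity of each probeset was deposited as computed by the authors with the Affymetrix Expression Console, quantile normalization at the exon level and PLIER, on a linear scale. The deposited table was used with no further normalization. Main probesets with a gene symbol were kept where the relative SD was at most 0.4 in each genotype, the limit of the study's methods (205469 of 221417). Gene values were means of log2(signal + 16). They were compared with limma 3.58.1 in R 4.3.3 with litter as a block, because the labels pair littermates, and p values were adjusted by Benjamini-Hochberg over all 17279 genes or, for the splicing index in genes with at least 3 probesets, over 202944 probesets. Intervals are at 95%. The scripts were tested on simulated data. The number of arrays limits the precision. Genes outside the 8 were named where they had an unadjusted p under 0.05 or moved the same way in all 6 litters, where they were the highest or lowest of their list, or for the 3 best correlations with a member among genes brighter than the median control. The 8 genes, lists and tests were chosen with earlier results of these data known. Tfap2b was not matched by symbol. Some genes are not reported here and were left out of the lists. Alternatives were the pseudocount, filters, scalings, the block, the summary over probesets, limma's trend and robust options, the methods' fold change and leaving out each litter. Tools also used were Python 3.11.15, numpy 2.4.6, pandas 2.3.3 and matplotlib 3.10.9.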

Additional observations from a re-analysis of the deposited data

Results flagged for a closer look

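The within-litter difference of Slc6a3 in litter 2, -0.571 log2, stood apart below the other 5 litters (median of all 6 litters -0.018), with a gap of 0.629 of the whole range. Drd4 stood apart in the KIS-ko brain of litter 6, at 8.749 log2 against a group median of 8.472 (gap 0.661 of the range), and Gdnf in the same brain, at 8.253 against 8.018 (gap 0.731). Hand2 stood apart in the KIS-ko brain of litter 5, at 8.133 against 7.783 (gap 0.635). These are 4 of 69 sets of 6 values searched, and chance marks about 1 set in 20.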

How the results depend on the processing

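No setting with a test called any of the 8 genes. Of 128 member values tested under the alternatives, 118 kept their sign and their side of the threshold, while 10, all small, changed sign. The 8 values of the methods' fold change have no test and kept their sign. On the log2 scale they were -0.04 for Th, -0.07 for Dbh, -0.01 for Slc6a2, -0.04 for Slc6a3, -0.07 for Slc18a2, 0.09 for Pitx3, -0.006 for Nr4a2 and -0.03 for Drd2. With centred arrays the values were -0.03 for Th, -0.12 for Dbh, -0.04 for Slc6a2, -0.01 for Slc6a3, -0.04 for Slc18a2 and 0.13 for Pitx3, and with arrays quantile-normalized again -0.04, -0.12, -0.05, -0.01, -0.05 and 0.12 in that order. Nr4a2 turned to 0.0451 with centred arrays, to 0.0151 with arrays quantile-normalized again and to 0.0006, 0.0147 and 0.0017 without litters 1, 3 and 6. Drd2 turned to 0.0217 and 0.00816 with the same scalings. With the median over probesets, Th turned to 0.000902 and Slc6a3 to 0.0162, and without litter 2 Slc6a3 turned to 0.0355. That median put Dbh at -0.25, Slc6a2 at -0.09, Slc18a2 at -0.16, Pitx3 at 0.04, Nr4a2 at -0.03 and Drd2 at -0.05. Leaving out each litter gave from -0.13 to -0.002 for Th, -0.24 to -0.09 for Dbh, -0.18 to -0.03 for Slc6a2, -0.12 to 0.0355 for Slc6a3, -0.15 to -0.04 for Slc18a2, 0.01 to 0.12 for Pitx3, -0.0381 to 0.0147 for Nr4a2 and -0.05 to -0.03 for Drd2. The count of genes called, 1, became 2 with a pseudocount of 64, without the relative SD filter or with limma's trend and robust options, and was 1 to 2 without each litter (2 without litter 3). Without the litter block it stayed at 1. The count of probesets with a changed splicing index, 2, became 18 without the block, 10 with a pseudocount of 64, 6 without dim probesets, 0 with probesets matching 1 place only and 2 to 3 without each litter. The cause was not tested. Dbh and Slc6a2 had no probeset above the 95th percentile of the intron controls, which limits what their differences can show.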
